A study of Homo sapiens with 6 samples.

Results

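Purine nucleotides supply the adenine and guanine of DNA, RNA, ATP and GTP. The transcripts described here encode 10 human enzymes that make them, and they were taken by gene symbol from a table of read counts on 23152 genes. PPAT, GART, PFAS, PAICS, ADSL and ATIC build inosine monophosphate (IMP) de novo from phosphoribosyl pyrophosphate (PRPP). IMPDH1, IMPDH2 and GMPS carry IMP on to guanosine monophosphate (GMP), and HPRT1 recovers hypoxanthine and guanine by salvage. All 10 were found in the table, and all 10 passed the filter on low counts that left 14467 genes to test.

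The RNA came from T24, an established human bladder cancer cell line, in 3 samples that carried the empty vector (vector) and 3 that overexpressed RNF112 (oeRNF112). RNF112 is an E3 ubiquitin ligase. The study reports that RNF112 lowers c-Myc protein by promoting its degradation and leaves MYC mRNA unaffected. These libraries measure RNA, so they do not show the level of c-Myc protein. The genes of de novo purine synthesis are widely described as targets of c-Myc, so the comparison asks how their transcripts stood when RNF112 was overexpressed. The labels give no time point. Their treatment text names transfection of siRNA, while the study's text describes overexpression plasmids and also T24 cells made to overexpress RNF112 stably with lentivirus. The way RNF112 was introduced into these 6 samples is therefore not settled by the sources used here. No source says that the samples came from separate cultures, and the p-values then measure the spread between these samples, which may be technical.

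Total counts lay between 40029547 and 41259569 per library. RNF112 had counts of 27, 19 and 24 in vector and of 29753, 36963 and 31712 in oeRNF112, so the labels of all 6 libraries fitted the overexpressed gene. MYC had 81.8, 80.6 and 86.4 counts scaled to a common library size (CPM) in vector and 74.7, 78.9 and 77.0 in oeRNF112, a log2 fold change of -0.11 ± 0.08 (SE) with an adjusted p of 0.377 in edgeR's quasi-likelihood test. Its groups did not overlap in CPM but did in RPKM. The 6 epithelial markers summed to 4074 to 4885 CPM in vector samples and to 3385 to 3747 in oeRNF112 samples, and all were detected. They did not move together: edgeR called KRT7 and KRT18 lower and EPCAM higher, and KRT8, KRT19 and EGFR did not pass the test. The 6 leukocyte markers summed to 32.7 to 36.3 CPM in vector samples, and oeRNF112 samples held 55.4 to 70.1. Most of that sum was CD68, which was called higher, while LAPTM5 was called lower, and the fitted changes of PTPRC, CD14 and CD79A were below 0 without passing the test. CD3E had a count of 0 in 5 libraries and of 4 in the remaining one. The 5 fibroblast markers summed to at most 10.95 CPM and the 4 endothelial markers to at most 0.567 CPM in any library. The part of these marker differences in the results below was not tested, and in bulk samples fewer cells of a type and less RNA per cell cannot be told apart.

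De novo synthesis assembles the purine ring on ribose phosphate in a chain of reactions that ends in IMP, and PPAT performs the committed step. From IMP the pathway divides into a branch to AMP, which uses ADSL a second time, and a branch to GMP, whose rate-limiting step is IMP dehydrogenase. Proliferating cells draw strongly on the de novo route, and IMPDH2 is the isoform usually associated with proliferation.

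The genes lie on 8 chromosomes, and the positions that follow are those of GENCODE v29 on GRCh38. PPAT spans chr4:56393362-56435615 on the minus strand and PAICS chr4:56435741-56464579 on the plus strand, so that their starts face away from each other across 125 bases. On the opposite strand PPAT shares 21033 bases with the transcribed pseudogene AC068620.3 and 560 with the noncoding gene AC068620.2. GART lies at chr21:33503931-33543491 on the minus strand. It shares 874 bases with SON on the opposite strand and 499 with the pseudogene BTF3P6 on the same strand. PFAS lies at chr17:8247618-8270491 on the plus strand, where it shares 478 bases with CTC1 on the opposite strand. ADSL, at chr22:40346500-40390463 on the plus strand, shares 19873 bases of the same strand with SGSM3 and 43935 with the read-through gene model AL022238.4. It also shares 15627 bases with the antisense gene AL022238.2 on the opposite strand. ATIC lies at chr2:215311817-215349773 on the plus strand and IMPDH1 at chr7:128392277-128410252 on the minus strand. IMPDH2 (chr3:49024325-49029408, minus strand) and GMPS (chr3:155870536-155944026, plus strand) share a chromosome without being neighbours. IMPDH2 shares 93 bases with the antisense gene AC137630.3 on the opposite strand. HPRT1 lies at chrX:134460153-134520513 on the plus strand.

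The stretch between PPAT and PAICS is shown because both genes start from it. It is written on the strand of PPAT, from the RefSeq promoter table of GRCh38.p14, at chr4:56435616-56435740, with GC boxes (GGGCGG or, on the other strand, CCGCCC) in capitals. The PAICS start in that RefSeq table lies elsewhere, within the span of PPAT, so the divergent arrangement rests on the GENCODE model.
PPAT to PAICS: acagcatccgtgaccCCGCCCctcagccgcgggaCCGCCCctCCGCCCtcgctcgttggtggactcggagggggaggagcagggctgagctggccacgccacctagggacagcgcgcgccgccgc
The stretch was 76% G and C, and all 3 GC boxes found in the 250 bases before the PPAT start lie in it.

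RefSeq promoters were matched for 8 of the 10 genes, with ADSL and IMPDH2 unmatched. The PAICS window was taken before its RefSeq start, within the span of PPAT. The counts below therefore do not credit PAICS with the GC boxes of the stretch shown above. The E-box CACGTG, the motif bound by c-Myc with its partner MAX, was present in the 250 bases upstream of 2 of the 8 and of 6.34% of 35116 promoters of the same length. The 30 bases around each are shown with the E-box in capitals.
PPAT, chr4:56435780-56435809, minus strand: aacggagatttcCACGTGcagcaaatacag
ATIC, chr2:215312001-215312030, plus strand: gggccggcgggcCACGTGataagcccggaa
Counted from the RefSeq starts, the E-box of PPAT lay 182 to 177 bases before and that of ATIC 46 to 41 bases before. The ATIC E-box lies inside the GENCODE span of ATIC, which begins at chr2:215311817. The windows of GART, PFAS and IMPDH1 also lie inside their GENCODE spans, and those of ATIC, GMPS and HPRT1 reach into theirs. Upstream therefore means before the RefSeq start here. GC boxes were found upstream of 6 of the 8 genes and of 42.6% of all promoters. A CCAAT box (CCAAT or ATTGG) was found upstream of GART only among the 8, at 3 places, and of 32% of all promoters. The TATA motif TATAAA (or TTTATA), present in 10.7% of all promoters, was not found in these windows. The matches describe letters in a reference sequence and say nothing of binding in T24 cells.

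Within vector cells the enzymes differed widely in level per length, measured as reads scaled by gene length and library total (RPKM). IMPDH2 was highest at 177 ± 18.4 RPKM (SD, n = 3), followed by HPRT1 at 93.7 ± 3.90, ATIC at 56.9 ± 3.23 and GART at 51.5 ± 2.63. PAICS stood at 38.0 ± 1.68 RPKM, ADSL at 25.8 ± 1.34, IMPDH1 at 23.7 ± 2.57 and GMPS at 19.5 ± 0.507. PFAS at 8.62 ± 0.633 and PPAT, the committed step, at 8.32 ± 0.921 were lowest. The vector samples of ADSL and IMPDH1 overlapped, as did those of PFAS and PPAT, and every other pair of neighbours in this order was separate in the 3 vector samples.

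In oeRNF112 the order changed at 3 places. GART, at 58.0 ± 1.68 RPKM (SD, n = 3), stood above ATIC at 52.8 ± 0.835, where it had stood below ATIC in all 3 vector libraries. ADSL, at 18.8 ± 0.825 RPKM, stood below IMPDH1 at 26.3 ± 0.806 and GMPS at 21.7 ± 0.0474. PPAT, at 9.99 ± 0.535 RPKM, stood above PFAS at 7.19 ± 0.817. The genes of each of these pairs were separate in the 3 oeRNF112 samples. The summed RPKM of the 10 enzymes was 507, 476 and 526 in vector and 452, 478 and 449 in oeRNF112. The groups overlapped in this sum, which rests on library totals. The scaling factors of the main test (TMM) were 0.9589, 0.9883 and 0.9572 in vector and 1.036, 1.014 and 1.049 in oeRNF112. The sum was not computed with these factors, so the overlap is stated for library totals only. IMPDH2 alone made up 34.97%, 33.22% and 37.08% of that sum in vector and 28.83%, 28.63% and 27.55% in oeRNF112.

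**Figure D1:**
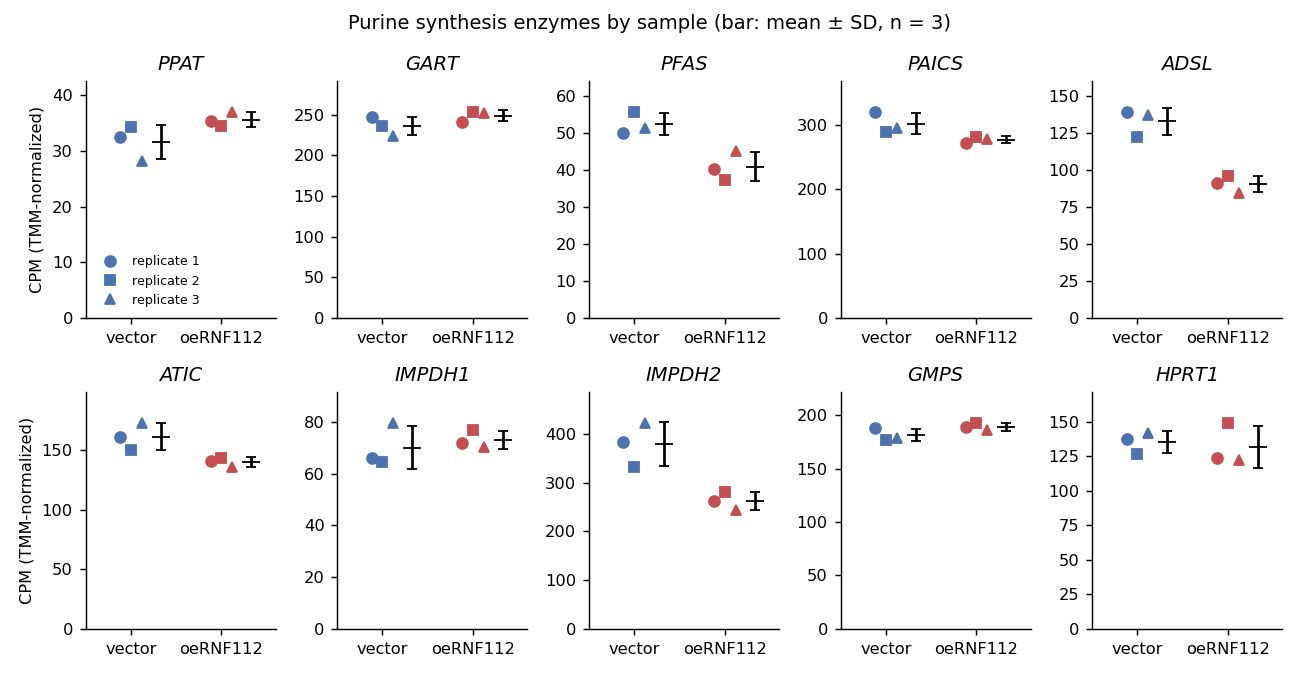
Level of each of the 10 purine synthesis enzymes in CPM after TMM normalization (vertical axes, each starting at 0) in the 3 vector and 3 oeRNF112 samples; symbols mark the replicate numbers and the bar beside each group is the mean ± SD (n = 3). ADSL and IMPDH2 show the widest gaps between the groups, while the points of GART, IMPDH1, GMPS and HPRT1 overlap.

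In the comparison of oeRNF112 with vector, 3 of the 10 enzymes fell, none rose, and 7 did not pass the test (edgeR's quasi-likelihood test, Benjamini-Hochberg adjusted p under 0.05 over all genes tested). ADSL fell by 31.9%, IMPDH2 fell by 30.95% and PFAS fell by 21.9%, so both the GMP branch and the route to IMP held lowered transcripts. Over all genes tested, 8.14% were called lower and 9.97% higher by the same rule. At an unadjusted p under 0.05 the members numbered 4 lower and 0 higher, beside 16% and 17.1% of all genes tested. DESeq2 called 3 lower and 0 higher, beside 9.53% and 10.7% of all genes it gave an adjusted p. In limma on log2(RPKM + 1), 2 were called lower and 0 higher, beside 1.83% and 5.77% of all 23152 genes. These limma shares include the genes with low counts that edgeR did not test, so they are not on the same genes. The median log2 fold change of the 10 was -0.08, beside 0.00267 over all genes tested. With library totals in place of TMM factors these medians were 0.01 and 0.10, so the sign of the members' median depended on the scaling. The same change of scaling turned the calls over all genes from 1178 lower and 1442 higher into 659 lower and 2020 higher.

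The CPM of 5 enzymes (PFAS, PAICS, ADSL, ATIC and IMPDH2) lay lower in every oeRNF112 sample than in any vector sample, and those of PPAT lay higher. Over all genes tested, 17.9% had groups apart in the lower direction and 18.9% in the higher direction. Among PAICS, ATIC and PPAT the gap between the groups was small against the spread within them, and none of these 3 passed the test.

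**Figure D2:**
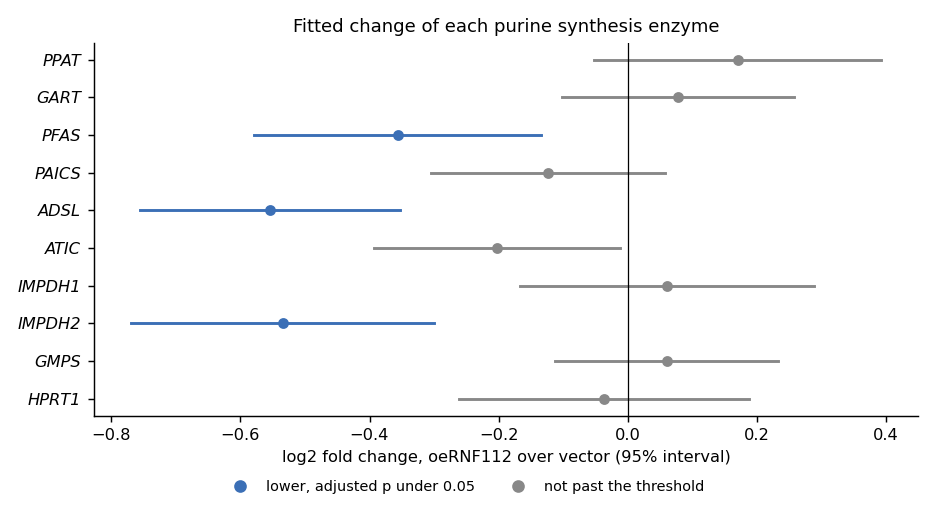
Fitted log2 fold change of each enzyme, oeRNF112 over vector (horizontal axis), with its 95% interval from edgeR; blue marks an adjusted p under 0.05. The intervals of PFAS, ADSL and IMPDH2 lie below 0 and are called, that of ATIC lies just below 0 without a call, and the others include 0.

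The first enzymes of the route did not fall. PPAT, the amidophosphoribosyltransferase that commits PRPP to purines, was at 32.4, 34.2 and 28.3 CPM in vector and at 35.4, 34.4 and 37.0 in oeRNF112. The highest vector sample and the lowest oeRNF112 sample differed by less than the spread within vector. The log2 fold change was 0.17 ± 0.10 (SE, 95% interval -0.05 to 0.39, adjusted p = 0.262, edgeR's quasi-likelihood test). GART, whose protein carries out the second, the third and the fifth step, was at 247, 236 and 224 CPM in vector and at 241, 253 and 252 in oeRNF112. The groups overlapped, and the log2 fold change was 0.08 ± 0.08 (SE, 95% interval -0.10 to 0.26, edgeR adjusted p = 0.531). On the RPKM scale, which uses library totals, the GART groups did not overlap, at 48.5 to 53.4 in vector and 56.3 to 59.7 in oeRNF112, and no fit on either scale called the gene.

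PFAS, the formylglycinamidine ribonucleotide synthase of the fourth step, was lower in oeRNF112. Its CPM were 50.1, 55.7 and 51.5 in vector and 40.3, 37.3 and 45.2 in oeRNF112. Every oeRNF112 sample lay below every vector sample, with replicate 3 of oeRNF112 nearest to vector. The log2 fold change was -0.36 ± 0.10 (SE, 95% interval -0.58 to -0.13, edgeR adjusted p = 0.0347). This call was the least stable of the 3: it was lost in 10 of 15 alternative settings, among them library totals (adjusted p = 0.12) and limma on log2(RPKM + 1) (adjusted p = 0.201), with the fold change below 0 in all 15. Leaving out vector replicates 1, 2 or 3 gave adjusted p of 0.102, 0.0588 and 0.0579, and leaving out oeRNF112 replicates 1, 2 or 3 gave 0.126, 0.113 and 0.0354.

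PAICS, the bifunctional enzyme of the sixth and seventh steps, was at 320, 290 and 295 CPM in vector and at 271, 282 and 278 in oeRNF112. The oeRNF112 samples lay below the vector samples in CPM, but in RPKM the groups overlapped, at 36.84 to 39.95 in vector and 36.6 to 38.0 in oeRNF112. The log2 fold change was -0.12 ± 0.08 (SE, 95% interval -0.30 to 0.06, edgeR adjusted p = 0.316). PAICS counts may include reads of its pseudogenes, of which the annotation names 7. Pseudogenes are also named for PPAT (2), GMPS (1) and HPRT1 (3), besides those of IMPDH1 given below.

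The divergent pair PPAT and PAICS was also compared within each library, where scaling cancels. The ratio of PAICS to PPAT in RPKM was 4.73, 4.06 and 5.01 in vector and 3.67, 3.93 and 3.60 in oeRNF112. All 3 oeRNF112 ratios were below all vector ratios, and the log2 ratio differed by -0.30 ± 0.10 (SE). The exact two-sided permutation test gave p = 0.1, the smallest that 3 samples against 3 allow, and 0.15 after adjustment over the 3 ratios computed.

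ADSL, adenylosuccinate lyase, acts at the eighth step of the route to IMP and again in the branch from IMP to AMP. It had 139, 123 and 137 CPM in vector and 91.2, 95.8 and 84.9 in oeRNF112. The lowest vector sample stood well above the highest oeRNF112 sample, and the gap exceeded the range within either group. The log2 fold change was -0.55 ± 0.09 (SE, 95% interval -0.76 to -0.35, adjusted p = 0.00333, edgeR's quasi-likelihood test). The call was kept in all 15 alternative settings, with fold changes between -0.61 and -0.44 on the log2 scale and adjusted p between 3.85e-06 and 0.0427. SGSM3, which overlaps ADSL on the same strand and was chosen after its values were seen, had counts of 1340, 1353 and 1614 in vector and 1475, 1254 and 1381 in oeRNF112. Its log2 fold change was -0.15 ± 0.11 (SE, 95% interval -0.40 to 0.10, edgeR adjusted p = 0.384), without a call. The part of reads from SGSM3 or AL022238.4 in the ADSL counts was not tested.

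ATIC completes IMP as a formyltransferase and cyclohydrolase. Its CPM were 161, 150 and 173 in vector and 141, 144 and 136 in oeRNF112. The groups did not overlap, and the log2 fold change was -0.20 ± 0.09 (SE, 95% interval -0.39 to -0.01). The unadjusted p of edgeR was 0.0392 and the adjusted p 0.129, and no alternative setting called it.

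In the GMP branch the 2 IMP dehydrogenases differed. IMPDH2 had 383, 332 and 423 CPM in vector and 261, 280 and 245 in oeRNF112. Every oeRNF112 sample lay below every vector sample, although the vector samples of this gene were spread more widely than those of most members. The log2 fold change was -0.53 ± 0.11 (SE, 95% interval -0.77 to -0.30, adjusted p = 0.00819, edgeR's quasi-likelihood test). Leaving out any 1 library kept the call, with adjusted p between 0.0013 and 0.0472.

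IMPDH1, which catalyses the same reaction, had 66.0, 64.7 and 79.8 CPM in vector and 71.9, 77.0 and 70.4 in oeRNF112. The groups overlapped, and the log2 fold change was 0.06 ± 0.10 (SE, 95% interval -0.17 to 0.29, edgeR adjusted p = 0.717). The annotation names 7 pseudogenes of IMPDH1, whose reads the counting may have shared with it.

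In RPKM, IMPDH2 was 8.03, 7.10 and 7.32 times as abundant as IMPDH1 in the vector libraries and 5.02, 5.03 and 4.80 times in the oeRNF112 libraries. The ratio is free of the scaling between libraries, and its 2 groups were far apart compared with the spread in either. The log2 ratio differed by -0.59 ± 0.06 (SE, exact two-sided permutation p = 0.1, the smallest possible, adjusted 0.15), and leaving out 1 library moved it between -0.63 and -0.54. IMPDH2 made up 88.9%, 87.7% and 88.0% of the summed IMPDH RPKM in vector and 83.4%, 83.4% and 82.8% in oeRNF112. The sum itself was 199, 181 and 221 RPKM in vector and 156, 164 and 149 in oeRNF112, with no overlap.

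**Figure D3:**
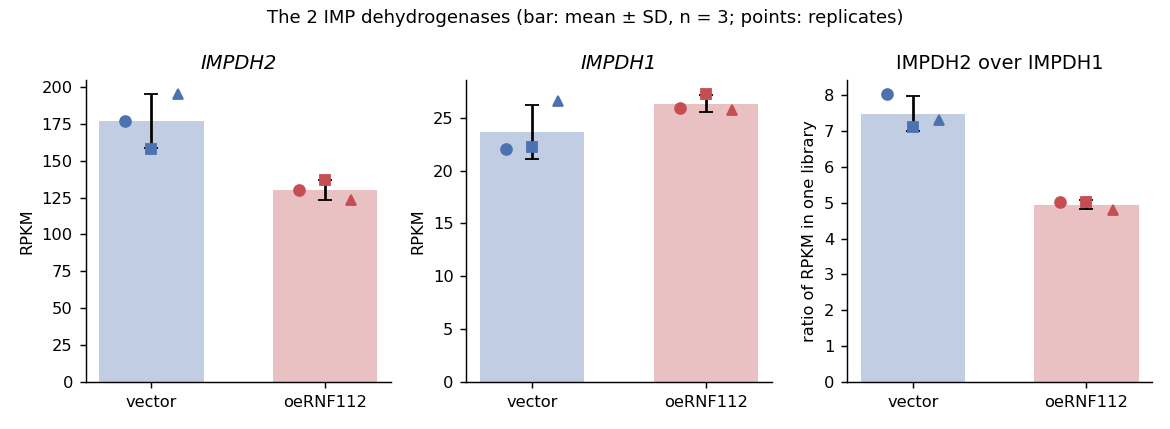
RPKM of IMPDH2 and IMPDH1, and the ratio of IMPDH2 to IMPDH1 within each library (vertical axes from 0), in vector and oeRNF112; bars are means ± SD (n = 3) and points are the samples. IMPDH2 and the ratio are lower in every oeRNF112 sample, from 7.10 to 8.03 down to 4.80 to 5.03 for the ratio, while the IMPDH1 points overlap.

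GMPS, which aminates xanthosine monophosphate to GMP, had 188, 177 and 179 CPM in vector and 189, 193 and 186 in oeRNF112. The groups overlapped in CPM, and the log2 fold change was 0.06 ± 0.08 (SE, 95% interval -0.11 to 0.23, edgeR adjusted p = 0.622). In RPKM they did not overlap, at 19.1 to 20.1 in vector and 21.7 to 21.8 in oeRNF112, and no fit on either scale called the gene. Of the GMP branch, then, 1 of 3 transcripts fell.

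HPRT1, the hypoxanthine-guanine phosphoribosyltransferase of the salvage route, had 137, 126 and 142 CPM in vector and 124, 149 and 122 in oeRNF112. Replicate 2 of oeRNF112 was the highest of the 6 samples, and the groups overlapped. The log2 fold change was -0.04 ± 0.10 (SE, 95% interval -0.26 to 0.19, edgeR adjusted p = 0.833), and its sign turned positive with library totals (0.06). The ratio of HPRT1 to PPAT, salvage against the committed step, was 11.2, 9.76 and 13.2 in vector and 9.24, 11.5 and 8.72 in oeRNF112. These overlapped (log2 difference -0.21 ± 0.18, SE, exact two-sided permutation p = 0.3, adjusted 0.3).

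Replicate 2 stood nearest to the other group in several of these genes. For PAICS, ADSL, ATIC and IMPDH2 the lowest vector sample and the highest oeRNF112 sample were both replicate 2. IMPDH2 in vector replicate 2 was 0.18 below the vector mean on the log2 scale, and in oeRNF112 replicate 2 it was 0.43 below, compared with 0.53 and 0.63 below in the other oeRNF112 samples. The share of counts held by the 100 most abundant genes moved with this order: it was 20.6% in vector replicate 2 against 22.4% and 22.9% in the other vector samples, and 19.6% in oeRNF112 replicate 2 against 19% and 17.98%. The part of this share in the members' differences was not tested.

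The pathway around the members was read from a list of further genes, of which 40 were tested, and AMPD1 was not analysed here. Of the 40, 4 fell, 7 rose and 29 did not pass the test, with a median log2 fold change of -0.03, where 8.14% of all genes tested were called lower and 9.97% higher. The falls included the cytosolic folate enzymes SHMT1 and MTHFD1, and the rises included the mitochondrial folate enzymes MTHFD2 and ALDH1L2 and the serine synthesis enzyme PSAT1. The PRPP synthetases and their associated proteins (4 genes), the AMP branch with the nucleotide kinases (10) and the other salvage kinases and transferases (4) held no call by edgeR, DESeq2 or limma. At an unadjusted p under 0.05 in edgeR these 3 groups held 0, 3 and 1 genes in either direction, where 16% of all genes tested were lower and 17.1% higher by that rule.

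De novo purine synthesis takes formyl groups from 10-formyltetrahydrofolate at the steps of GART and ATIC. Of 11 genes for serine and one-carbon supply, 2 fell and 3 rose, beside 8.14% and 9.97% of all genes tested. SHMT1, the cytosolic serine hydroxymethyltransferase, had 134, 126 and 131 CPM in vector and 92.5, 97.2 and 88.4 in oeRNF112 (log2 fold change -0.49 ± 0.08, SE, edgeR adjusted p = 0.00363). MTHFD1, the trifunctional cytosolic enzyme that makes 10-formyltetrahydrofolate, had 238, 226 and 228 CPM in vector and 170, 178 and 185 in oeRNF112 (-0.38 ± 0.08, SE, edgeR adjusted p = 0.0109). The groups overlapped in neither, but the MTHFD1 call was lost without vector replicate 1 (adjusted p = 0.0726) or oeRNF112 replicate 1 (0.0705).

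On the side of the rises, PSAT1, the aminotransferase of serine synthesis, had 220, 188 and 214 CPM in vector and 287, 313 and 317 in oeRNF112 (log2 fold change 0.56 ± 0.09, SE, edgeR adjusted p = 0.0034). The other enzymes of serine synthesis did not pass edgeR's test: PHGDH had a log2 fold change of 0.15 (adjusted p = 0.38), and PSPH of -0.23 (0.122) with every oeRNF112 sample below every vector sample. MTHFD2, the mitochondrial methylenetetrahydrofolate dehydrogenase, had 178, 162 and 180 CPM in vector and 223, 242 and 232 in oeRNF112 (0.42 ± 0.08, SE, edgeR adjusted p = 0.00815). ALDH1L2, the mitochondrial 10-formyltetrahydrofolate dehydrogenase, had counts of 81, 113 and 80 in vector and 204, 203 and 272 in oeRNF112 (1.23 ± 0.19, SE, edgeR adjusted p = 0.00275). The rise was not shared by every mitochondrial enzyme of the cycle: SHMT2 (log2 fold change -0.13, adjusted p = 0.422), MTHFD1L (-0.20, 0.182) and MTHFD2L (-0.18, 0.477) did not pass edgeR's test. Nor was the fall shared by every cytosolic enzyme. ALDH1L1, the cytosolic counterpart of ALDH1L2, had low counts of 65, 61 and 43 in vector and 64, 83 and 53 in oeRNF112. Its groups overlapped (log2 fold change 0.17, edgeR adjusted p = 0.693).

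Among 11 genes of purine interconversion and breakdown, 2 fell and 4 rose, beside 8.14% and 9.97% of all genes tested, with a median log2 fold change of 0.21. NT5E, the cell-surface 5'-nucleotidase that makes adenosine from AMP, had 165, 160 and 144 CPM in vector and 223, 214 and 229 in oeRNF112 (log2 fold change 0.50 ± 0.09, SE, edgeR adjusted p = 0.00401). AMPD3, an AMP deaminase, rose by 0.40 (edgeR adjusted p = 0.0152), and the call was lost without vector replicate 1 (0.0697) or oeRNF112 replicate 1 (0.0714). GMPR, which turns GMP back into IMP, rose by 0.59 on the log2 scale (edgeR adjusted p = 0.0336), while GMPR2, which catalyses the same reaction, fell by 0.30 (0.0362). GDA, guanine deaminase, was sparse, with counts of 12, 15 and 6 in vector and 16, 54 and 80 in oeRNF112, so its log2 fold change of 2.09 (edgeR adjusted p = 0.0309) came mainly from replicates 2 and 3 of oeRNF112. XDH, xanthine dehydrogenase, fell by 0.38 (edgeR adjusted p = 0.0485).

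Leaving out 1 library left the call of NT5E in place each time (edgeR adjusted p between 0.00404 and 0.0255), while others of this group lay near the threshold. GMPR and XDH kept theirs only without vector replicate 3 (edgeR adjusted p of 0.021 and 0.0348) and GMPR2 only without vector replicate 2 (0.032), and each lost it without any of the other 5 libraries, with adjusted p up to 0.0983, 0.165 and 0.141 in that order of genes. Their log2 fold changes stayed between 0.43 and 0.74 for GMPR, between -0.46 and -0.29 for XDH and between -0.33 and -0.26 for GMPR2. GDA lost its call without vector replicate 1 (0.102), vector replicate 3 (0.0933) or oeRNF112 replicate 3 (0.114). The calls among the 40 genes were 1 lower and 4 higher without vector replicate 1, and 5 lower and 6 higher without vector replicate 2 or without vector replicate 3. They were 1 lower and 5 higher without oeRNF112 replicate 1, 3 lower and 6 higher without oeRNF112 replicate 2, and 2 lower and 5 higher without oeRNF112 replicate 3.

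**Figure D4:**
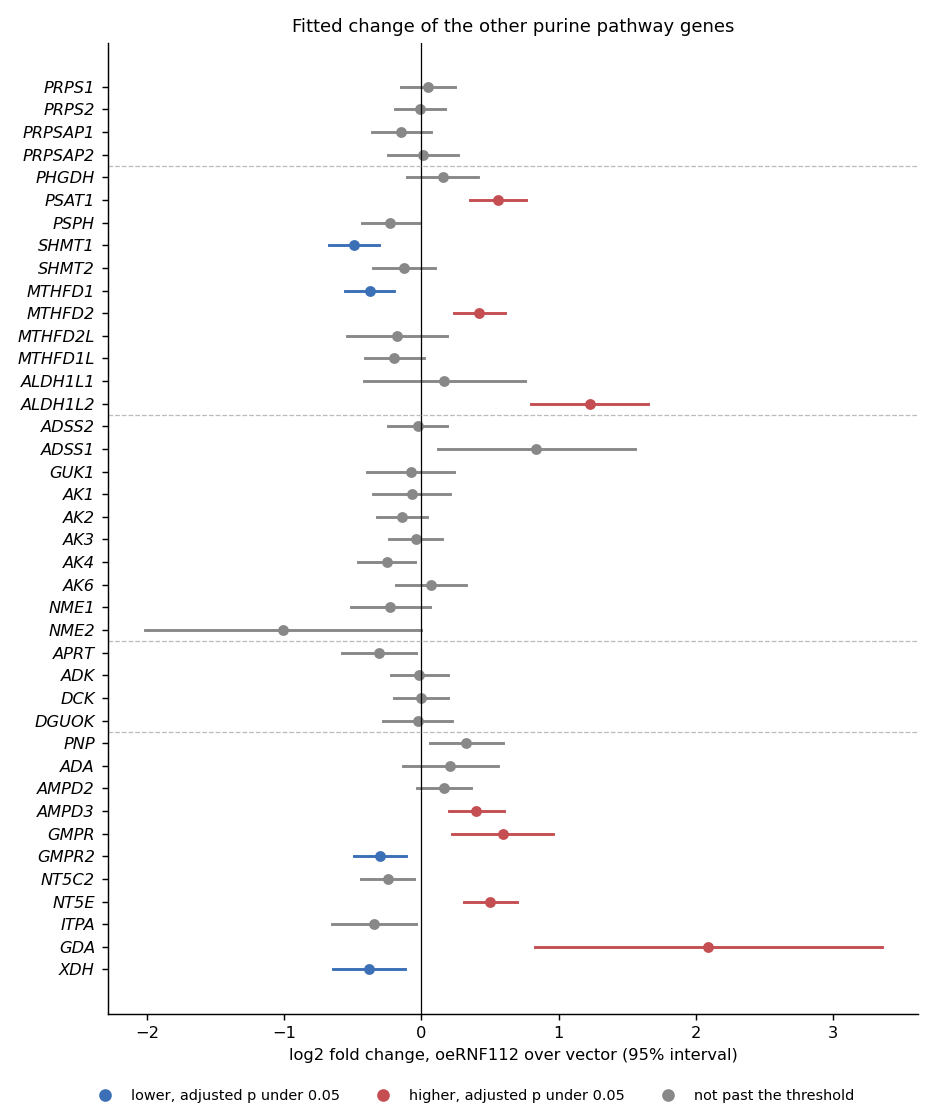
Fitted log2 fold change of the 40 other purine pathway genes, oeRNF112 over vector (horizontal axis), with 95% intervals from edgeR; dashed lines separate, from the top, PRPP supply, serine and one-carbon supply, the AMP branch with nucleotide kinases, other salvage, and interconversion with breakdown. The 4 blue (lower) and 7 red (higher) genes all belong to the second and last groups.

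**Figure D5:**
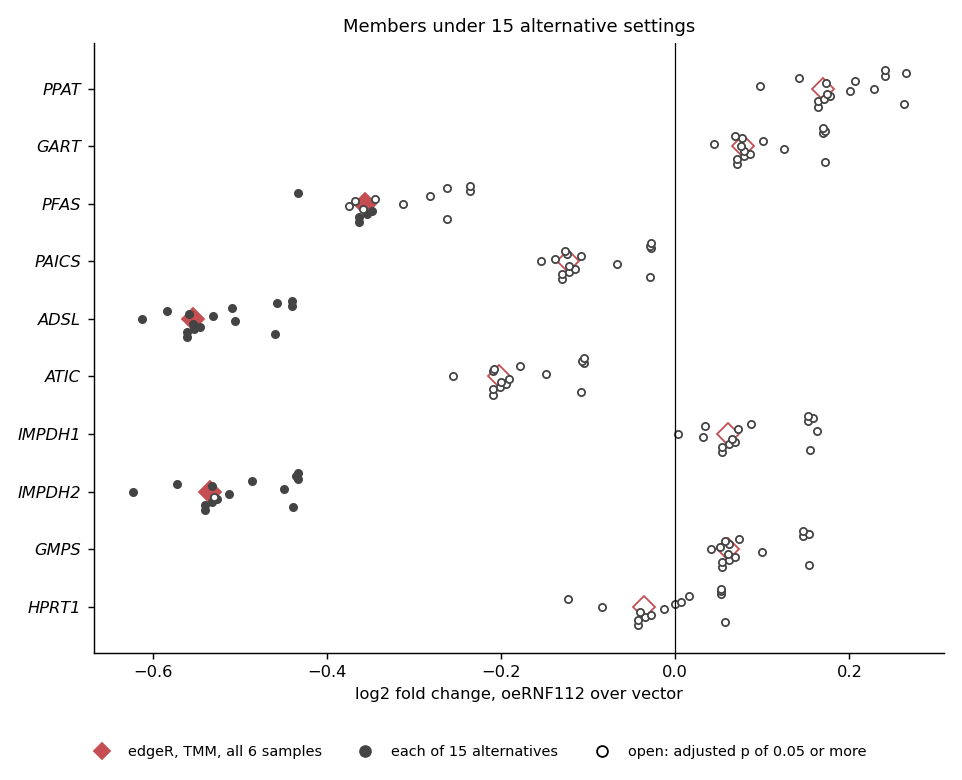
Log2 fold change of each of the 10 enzymes, oeRNF112 over vector (horizontal axis), in edgeR with TMM factors and all 6 samples (diamond) and in each of 15 alternative settings (circles, spread vertically for visibility); open symbols have an adjusted p of 0.05 or more. ADSL is called in all 15 and IMPDH2 in 14, PFAS in 5, and HPRT1 lies on both sides of 0.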

How the data were processed

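RNA-seq libraries of 3 vector and 3 oeRNF112 T24 samples were analysed as a whole, and the rows of the 10 enzymes were then read out. The authors deposited raw counts of reads per gene and RPKM values (counts scaled by gene length and library total). For all 23152 genes a single length linked both tables, so they hold the same measurement. Per the labels, reads were trimmed with Trimmomatic 0.36 and counted with featureCounts (Subread 1.5.1) on GRCh38, from a stranded mRNA kit. The aligner, annotation and strand setting are not given in the sources used here.

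Counts were filtered with filterByExpr, normalized with TMM factors (0.957 to 1.05) and tested two-sided with edgeR 4.0.16 (glmQLFit, glmQLFTest, group as the only term) in R 4.3.3, with Benjamini-Hochberg adjustment over 14467 genes. Ratios within a library were tested by exact permutation over 20 arrangements. Other settings tried were the size factors of DESeq2 within edgeR, DESeq2 1.42.0 itself, scaling by library total, no filter or at least 10 counts in every sample, the replicate number as a block, leaving out 1 of the 6 libraries, and limma 3.58.1 on log2(RPKM + 1) or log2(RPKM + 0.1), also with a mean RPKM of at least 1. Pairs of replicates differed beyond counting noise. The scripts were tested on simulated data.

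Members and lists were chosen with earlier results of these data known. The named genes were the 10 enzymes, genes of the wider list with an adjusted p under 0.05 or no row, RNF112, MYC, and the 5 genes most like the members' mean profile. Some genes of the wider list are not reported here. SGSM3, PHGDH, PSPH, SHMT2, MTHFD1L, MTHFD2L, ALDH1L1 and the marker genes fall outside this rule.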

Additional observations from a re-analysis of the deposited data

How the results depend on the processing

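The replicate numbers did not pair the samples: deviations from the group means correlated at -0.105, -0.319 and -0.263 between same-numbered samples. With the replicate block, 1 enzyme (ADSL) was called lower, IMPDH2 had an adjusted p of 0.0673 in edgeR and PFAS of 0.175, the wider pathway had 0 lower and 2 higher, and all genes 258 lower and 618 higher. Without a filter on low counts the wider pathway had 2 lower. With library totals it had 2 lower and all genes 659, and the medians of the members and the wider pathway were 0.01353 and 0.06734. In limma on log2(RPKM + 1), log2(RPKM + 0.1) or log2(RPKM + 1) at a mean RPKM of at least 1, the wider pathway had 2 lower each time, all genes had 424, 430 and 603, and the members' medians were 0.01205, 0.01195 and 0.01205. The wider medians were 0.06606, 0.06848 and 0.05618. HPRT1 turned positive with library totals (0.05661) and in these limma fits (0.05229, 0.05275 and 0.05229). Leaving out 1 library gave -0.1231 to 0.01572 for HPRT1, with a positive sign without oeRNF112 replicate 1 (0.006079) or 3. It gave 1 to 5 lower and 4 to 6 higher in the wider pathway, and 359 to 1546 lower and 702 to 1841 higher over all genes. The lowest of these counts over all genes came without vector replicate 1, followed by oeRNF112 replicate 1 (431 and 832) and replicate 3 (533 and 913), and without vector replicate 3 there were 768 lower. The cause was not tested. The members called lower numbered 2 or 3 without 1 library, and 0 were called higher in any of the 15 settings. ADSL and PSAT1 kept their calls in all 15.

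The lowest count of a member in any library was 1091, for PPAT. With 3 samples a group, the exact permutation tests of the ratios could not go below p = 0.1.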

Other observations

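Outside the pathway, the 5 tested genes whose CPM (log2 scale) most resembled the mean profile of the 10 enzymes over the 6 samples were APOBEC3B (Pearson r = 0.998), PPA2 (0.997), AP4M1 (0.997), COPS4 (0.996) and COPS3 (0.995). APOBEC3B encodes a cytidine deaminase that edits single-stranded DNA, PPA2 a mitochondrial inorganic pyrophosphatase, AP4M1 a subunit of an adaptor complex for vesicle transport, and COPS4 and COPS3 subunits of the COP9 signalosome. The 10 enzymes did not share a profile: pairs of them ranged from r = -0.967 (PPAT and ATIC) to 0.983 (ATIC and IMPDH2). Likeness to their mean is therefore not likeness to each enzyme. The 6 points share the 2 groups and the same libraries, and the genes were picked as the highest of all genes tested, so these values describe likeness only.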
